A study of Mus musculus with 4 samples.

Results

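The regions described here are the p53 peaks near 9 genes of the p53 family and its feedback loop in mouse hematopoietic progenitor lines. The genes are *Mdm2*, *Mdm4*, *Ppm1d*, *Ccng1*, *Zmat3*, *Trp53inp1*, *Trp53*, *Trp63* and *Trp73*. A peak was taken when its centre lay within 50 kb of any annotated transcription start site (TSS) of one of these genes, which gave 18 of the 7384 peaks in the list. p53 binding was mapped by ChIP-Seq, in which an antibody recovers the DNA fragments a protein is bound to and the fragments are sequenced. The p53 libraries were from untreated Ba/F3 cells, a mouse B cell progenitor line, from Ba/F3 cells 3 h after 3 Gy of irradiation (IR), and from untreated HPC7 cells, a mouse multipotent progenitor line. Cells of both lines stably expressed murine MYSM1 with a triple FLAG tag and were kept in puromycin, and a library for H3K27ac in irradiated Ba/F3 cells was not used here. There was 1 library per condition, the list pools the 3 p53 libraries without a value for any of them, and their depth is unknown, so no difference is set against a spread between replicates and no test was run.

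p53 is a transcription factor that is held at a low level in unstressed cells and accumulates after DNA damage. Mdm2, a ubiquitin ligase that marks p53 for degradation, is itself the product of a p53 target gene, so that p53 raises the level of its own inhibitor. Other targets feed back on the same loop, among them the phosphatase gene *Ppm1d* and the cyclin gene *Ccng1*, and p63 and p73 are relatives of p53 with a similar DNA-binding domain. p53 binds DNA as a tetramer at a pair of half-sites of 10 positions each, with 3 purines, C, A or T, A or T, G and 3 pyrimidines.

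Each peak is 100 bp wide and has a number from 1 to 7384, which is the order of the change in p53 binding upon IR in Ba/F3 cells, with 1 for the largest gain. The study divided this order into Group I, with a gain, Group II, with little change, and Group III, with a decrease, and the peaks are placed in these Groups here by their number. A p53 site is a match to the 20 positions of both half-sites with no spacer, at most 3 mismatches and the C and G of each core intact, within 100 bp of the peak centre. All positions are in mm9, and sequences are of the plus strand.

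The sequences of 10 of the 18 peaks follow, chosen as those with a p53 site that the results turn on and with no overlap with an annotated untranslated region. Capitals mark the p53 site with the fewest mismatches in each peak.
Mdm2 peak 4719, chr10:117147092-117147191: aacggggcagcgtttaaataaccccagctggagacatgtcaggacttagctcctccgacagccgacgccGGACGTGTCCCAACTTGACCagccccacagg
Mdm2 peak 6667, chr10:117154743-117154842: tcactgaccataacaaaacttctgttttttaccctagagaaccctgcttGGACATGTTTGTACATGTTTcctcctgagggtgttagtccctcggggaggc
Mdm4 peak 6558, chr1:134916844-134916943: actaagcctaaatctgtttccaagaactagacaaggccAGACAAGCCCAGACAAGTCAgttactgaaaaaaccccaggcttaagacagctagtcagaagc
Ccng1 peak 6644, chr11:40568920-40569019: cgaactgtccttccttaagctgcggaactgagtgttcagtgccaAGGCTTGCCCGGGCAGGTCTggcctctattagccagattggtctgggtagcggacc
Zmat3 peak 6738, chr3:32263199-32263298: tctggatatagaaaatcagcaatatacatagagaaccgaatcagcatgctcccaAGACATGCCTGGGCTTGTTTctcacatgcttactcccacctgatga
Zmat3 peak 1792, chr3:32269032-32269131: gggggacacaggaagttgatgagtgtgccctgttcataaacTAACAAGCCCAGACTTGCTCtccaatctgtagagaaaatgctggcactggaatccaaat
Trp53inp1 peak 3732, chr4:11103464-11103563: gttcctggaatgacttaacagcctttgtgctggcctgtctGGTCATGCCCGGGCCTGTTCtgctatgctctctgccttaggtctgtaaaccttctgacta
Trp53inp1 peak 3579, chr4:11111431-11111530: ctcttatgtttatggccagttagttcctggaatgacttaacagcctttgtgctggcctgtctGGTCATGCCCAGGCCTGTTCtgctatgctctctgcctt
Trp73 peak 2648, chr4:153459907-153460006: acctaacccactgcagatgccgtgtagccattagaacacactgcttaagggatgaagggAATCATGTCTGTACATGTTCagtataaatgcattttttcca
Trp73 peak 1452, chr4:153479927-153480026: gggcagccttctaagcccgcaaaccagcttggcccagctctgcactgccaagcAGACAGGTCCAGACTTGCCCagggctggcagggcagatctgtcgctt

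A p53 peak lay within 50 kb of 8 of the 9 genes, and *Trp63* was the gene without one. Of the 22225 protein-coding genes on the same chromosomes, 40.5% had a peak within that distance. At shorter range the same 8 genes had a peak within 10 kb, where the share of all protein-coding genes was 15.6%, and 6 of the 9 had a peak within 1 kb, against 6.15% of all. The 6 genes were *Mdm2*, *Ppm1d*, *Ccng1*, *Trp53inp1*, *Trp53* and *Trp73*. Several genes had more than 1 peak. At least 2 peaks were found at 6 of the 9 genes, against 14.4% of protein-coding genes, at least 3 peaks at *Ppm1d*, *Trp53inp1* and *Trp73*, against 4.27%, and 4 peaks at *Trp73*, against 1.15%. The median over all protein-coding genes was 0 peaks and the highest count was 7. These counts, for the 9 genes and for all genes, include peaks with another gene nearer. Among the 9, such peaks occurred at *Ppm1d*, *Ccng1*, *Zmat3*, *Trp53inp1*, *Trp53* and *Trp73*.

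**Figure D1:**
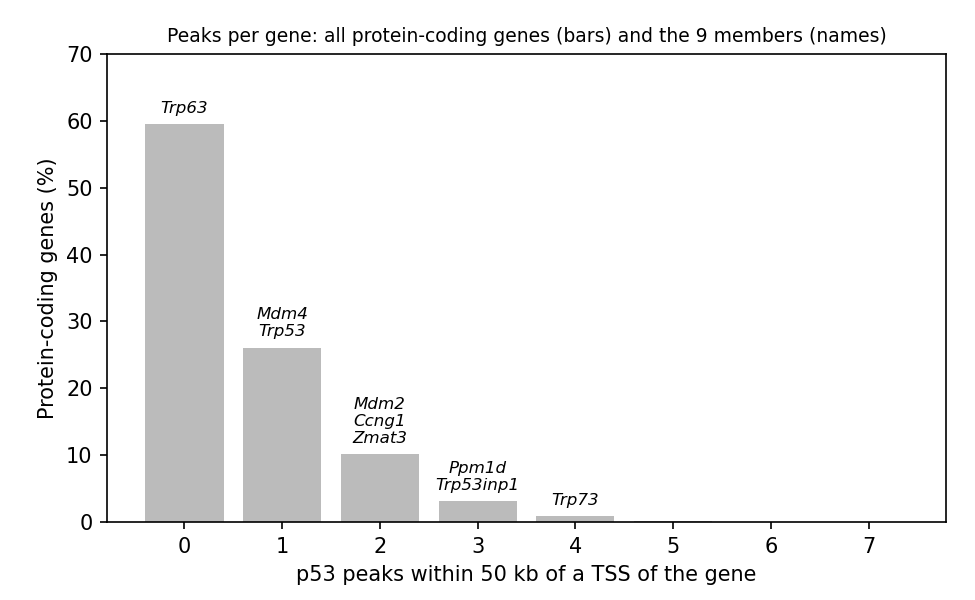
Peaks within 50 kb of a TSS of each gene (horizontal axis, count) and the share of the 22225 protein-coding genes with that count (vertical axis and bars, %), with the 9 genes named above the bar of their own count. *Trp63* stands at 0 with most protein-coding genes, and *Trp73* at 4 peaks, a count that 1.15% of genes reached or passed.

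Of the 18 peaks, 13 lay within 10 kb and 7 within 1 kb of a TSS of one of the 9 genes. Counting the TSSs of all annotated genes, 10 of the 18 lay within 1 kb of a TSS. The share was 18.6% of all peaks and 25.1% of the 5405 peaks within 50 kb of a protein-coding TSS, and nothing is read from this count, because the 18 were chosen by their distance to a TSS. Another protein-coding gene started nearer to 7 of the peaks, and these genes were *Appbp2*, *Nudcd2*, *4930429B21Rik*, *Ccne2*, *Wrap53*, *Wdr8* and *Tprgl*. The list does not say which gene a peak acts on.

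**Figure D2:**
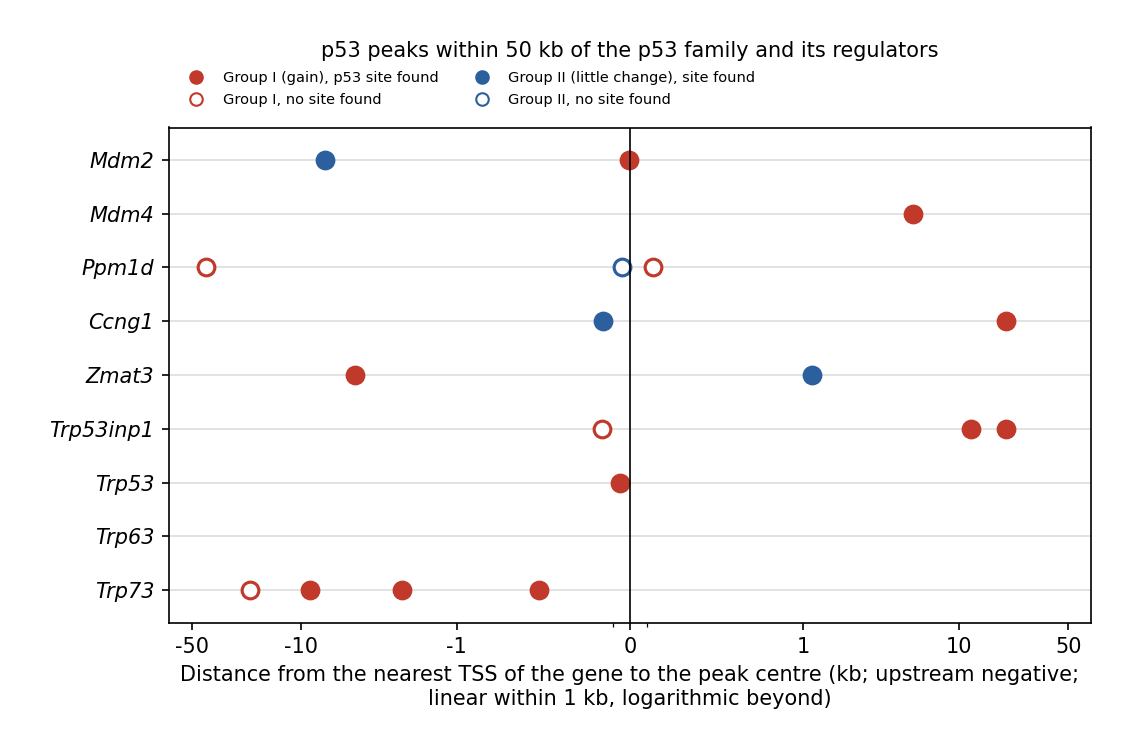
Distance from the nearest TSS of each gene to the peak centre (horizontal axis, kb, upstream negative, linear within 1 kb and logarithmic beyond) for the 18 peaks, with 1 row per gene. Red marks Group I and blue Group II, and filled points have a p53 site while open points have none. Each of the 4 blue points lies within 10 kb of a TSS, and the row of *Trp63* is empty.

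*Mdm2*, the ligase gene (ENSMUSG00000020184.8, chr10:117125944-117147814, minus strand), had a peak inside the gene and another upstream of it. Peak 4719 of Group I was centred 673 bp downstream of the first TSS of *Mdm2* and 7 bp upstream of an internal TSS, in intron 1 of 5 transcripts and exon 1 of another. *Mdm2* is known for an internal promoter in intron 1 that responds to p53. This peak had a GC content of 66% over 200 bp and a p53 site with 3 mismatches, GGACGTGTCCCAACTTGACC at chr10:117147161-117147180. When the C and G of the core were allowed to count as ordinary positions, a choice made after the sequence was seen, another site with 3 mismatches was found in the same peak, AGACATGTCAGGACTTAGCT at chr10:117147123-117147142. That setting is looser for every peak. It also added sites with 3 mismatches at 5 of the other peaks, those of *Ccng1* (5657 and 6644), *Trp53inp1* (3732 and 3579) and *Trp73* (2648), and raised the share of all peaks with a site from 54.4% to 65.4%, so nothing particular to *Mdm2* is read from it.

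Peak 6667 of Group II lay in intergenic DNA 6978 bp upstream of the first TSS of *Mdm2*, and no other protein-coding gene started nearer. Its site GGACATGTTTGTACATGTTT at chr10:117154792-117154811 had 1 mismatch, and a further site with 2 mismatches, AACCCTGCTTGGACATGTTT, shared a half-site with it. *Mdm2* thus had both classes of peak, 7651 bp apart, with the better match at the upstream peak of little change and the weaker match at the internal peak of Group I.

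*Mdm4* encodes a relative of Mdm2 that binds p53 and inhibits its activity. The gene (ENSMUSG00000054387.6, chr1:134886422-134921943, minus strand) had a single peak, number 6558 of Group I, 5032 bp downstream of a TSS and in intron 1 of all 3 transcripts. It held a pair of overlapping sites, AGACAAGGCCAGACAAGCCC and AGACAAGCCCAGACAAGTCA, each with 1 mismatch, which together make 3 half-sites in a row. The number 6558 stands 88.8% of the way down the order. The window of the *Mdm4* peak was similar to those of 6 other peaks elsewhere in the genome, all of Group I, with 80 to 85% identity over at least 100 bp. Of these 6 peaks, 4 had a site with 0 mismatches and 2 a site with 1.

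*Ppm1d* encodes Wip1, a phosphatase that removes damage-induced phosphate groups from p53 and from the kinases upstream of it. At *Ppm1d* (ENSMUSG00000020525.11, chr11:85124746-85160568, plus strand) none of the 3 peaks had a p53 site. Peak 6777 of Group II was centred 48 bp upstream of the first TSS, and peak 1892 of Group I 134 bp downstream of it, in exon 1 and its untranslated part. These peaks lay 182 bp apart, with GC contents of 66.5% and 70.5%, and stood at 91.8% and 25.6% of the order. Their 200 bp windows overlap, and a list without signal does not separate the fragments under them. With a spacer of 4 bases allowed between the half-sites, a match with 2 mismatches was found at peak 1892, GGCCCAGCTCTCGCGGACAAGTCC at chr11:85124792-85124815. The remaining peak, 5165 of Group I, was 40400 bp upstream of *Ppm1d* and 35714 bp from *Appbp2*, and had a match with 3 mismatches only with a spacer of 10 bases.

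*Ccng1* encodes cyclin G1, which recruits a phosphatase to Mdm2 and belongs to the negative arm of the loop. Peak 6644 of Group II lay 156 bp upstream of the first TSS of *Ccng1* (ENSMUSG00000020326.7, chr11:40562054-40568813, minus strand). Its site AGGCTTGCCCGGGCAGGTCT at chr11:40568964-40568983 had 1 mismatch and was centred 4 bp from the peak centre. The other peak at this locus, 5657 of Group I, was 19770 bp downstream of a *Ccng1* TSS and past the end of the gene, inside *Nudcd2* and 37 bp from its TSS. The site there had 2 mismatches and read TAGCAAGCCAGGGCTTGTCC, at chr11:40547658-40547677.

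*Zmat3* encodes an RNA-binding zinc finger protein and is a well-known p53 target. It carried the only site without a mismatch among the 18 peaks, AGACATGCCTGGGCTTGTTT at chr3:32263253-32263272. That site lay in peak 6738 of Group II, 1134 bp downstream of a TSS of *Zmat3* (ENSMUSG00000027663.6, chr3:32233718-32264600, minus strand) and in intron 1 of its 3 transcripts. Peak 1792 of Group I lay 5833 bp away, 4481 bp upstream of the first TSS of *Zmat3* and 4384 bp from *4930429B21Rik*. It had a site with 1 mismatch, TAACAAGCCCAGACTTGCTC. Peak 6738 with the exact match thus stood at 91.3% of the order, and peak 1792 with 1 mismatch at 24.3%. Whether the match goes with the order was not tested, here or at *Mdm2*.

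*Trp53inp1* encodes a stress-induced nuclear protein that promotes phosphorylation of p53. All 3 peaks of *Trp53inp1* (ENSMUSG00000028211.5, chr4:11083578-11101526, plus strand) were of Group I. Peak 6513 lay at the promoter, 164 bp upstream of the first TSS, with a GC content of 74% that was the highest of the 18, and without a site. With a spacer of 7 bases a match with 3 mismatches was present, GGGCTTGTTTCTGCCCCGGGCGCGCCG at chr4:11083417-11083443. Peaks 3732 and 3579 lay past the end of the gene, 11907 bp and 19874 bp downstream of a *Trp53inp1* TSS, and the latter was nearer to *Ccne2*, at 7018 bp. Their sites GGTCATGCCCGGGCCTGTTC and GGTCATGCCCAGGCCTGTTC each had 2 mismatches, and each was part of 3 half-sites in a row.

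The windows of peaks 3732 and 3579 were 97.2% identical over 181 bp, 7967 bp apart, and similar to 3 and 6 peaks of the list in all, each other included. How reads that map to several places were treated is not given in the sources used here. Which of these places the reads came from was not tested, and the peaks are not independent observations.

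*Trp53* itself, which encodes p53, had 1 peak within 50 kb. Peak 3112 of Group I lay 60 bp upstream of the first TSS of *Trp53* (ENSMUSG00000059552.6, chr11:69393861-69405375, plus strand) and 44 bp from the TSS of *Wrap53*, the gene that starts beside it on the opposite strand. Its site had 3 mismatches and is printed alone because the peak overlaps an untranslated region of *Wrap53*.
Trp53 peak 3112, chr11:69393786-69393805: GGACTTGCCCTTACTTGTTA

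*Trp63* and *Trp73*, the relatives of *Trp53*, stood at opposite ends of the peak counts. No peak lay within 100 kb of *Trp63* (ENSMUSG00000022510.8, chr16:25683849-25892188, plus strand), which has TSSs spread over 118153 bp. The nearest peak, 4167, was 630905 bp upstream. *Trp73* (ENSMUSG00000029026.9, chr4:153430358-153514317, minus strand) has 5 TSSs over 54886 bp and had 4 peaks, all of Group I, with numbers from 1452 to 3565. A gene with TSSs over a longer stretch covers more sequence within 50 kb, so the counts of these genes are not on the same footing as those of compact genes.

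Peaks 1452 and 2648 lay inside *Trp73*, 34341 bp and 54361 bp downstream of its first TSS. Peak 1452 was in intron 1 of 3 transcripts and held a site with 1 mismatch, AGACAGGTCCAGACTTGCCC at chr4:153479980-153479999. It had the lowest number of the 18 peaks, 19.7% of the way down the order. Peak 2648 was intronic in 7 transcripts, 525 bp upstream of an internal TSS, and held a site with 2 mismatches, AATCATGTCTGTACATGTTC at chr4:153459966-153459985. Peaks 3341 and 3565, upstream of *Trp73*, were nearer to other genes, 40 bp from *Wdr8* and 539 bp from *Tprgl*. Peak 3341 overlaps an untranslated region of *Wdr8*, so that only its site, with 3 mismatches, is printed, and peak 3565 had no site.
Trp73 peak 3341, chr4:153516529-153516548: GGGCTGGCCCGGGCTGGCCG

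In the order of binding change, 14 of the 18 peaks were of Group I, 4 of Group II and 0 of Group III. Of all 7384 peaks, 89.9% were of Group I, 2.17% of Group II and 7.9% of Group III, and Group II made up 3.2% of the 3064 peaks within 10 kb of a protein-coding TSS. The 4 Group II peaks lay at 4 different genes, *Mdm2*, *Ppm1d*, *Ccng1* and *Zmat3*, each of which also had a Group I peak. The Group I peaks of *Ccng1* and *Zmat3* had another gene nearer, and at *Ppm1d* the promoter peaks of both classes have overlapping windows. A Group II peak within 50 kb was found at 1.55% of protein-coding genes, or 3.84% of the 8993 genes with any peak, and both classes together at 0.891%. *Mdm4*, *Trp53inp1*, *Trp53* and *Trp73* had Group I peaks alone.

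Group I made up the first 89.9% of the order. Of the Group II peaks, *Ccng1* peak 6644 and *Mdm2* peak 6667 stood just past this boundary, at 90.0% and 90.3%. *Zmat3* peak 6738 and *Ppm1d* peak 6777 followed at 91.3% and 91.8%. The study set the Groups by a cut on the fold change. The class of peaks 6644 and 6667 thus rests on where that cut was placed. On the Group I side, the *Mdm4* peak and the promoter peak of *Trp53inp1* stood at 88.8% and 88.2%, farther from the boundary than peaks 6644 and 6667. The other 12 Group I peaks had numbers from 1452 to 5657. The median number of the 18 peaks was 4225.5, against 3692.5 for the list. The 18 numbers ranged widely, from 1452 to 6777, and nothing is read from the difference in medians. The number gives only an order, and neither the size of a change nor the level of binding before IR can be read from it.

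**Figure D3:**
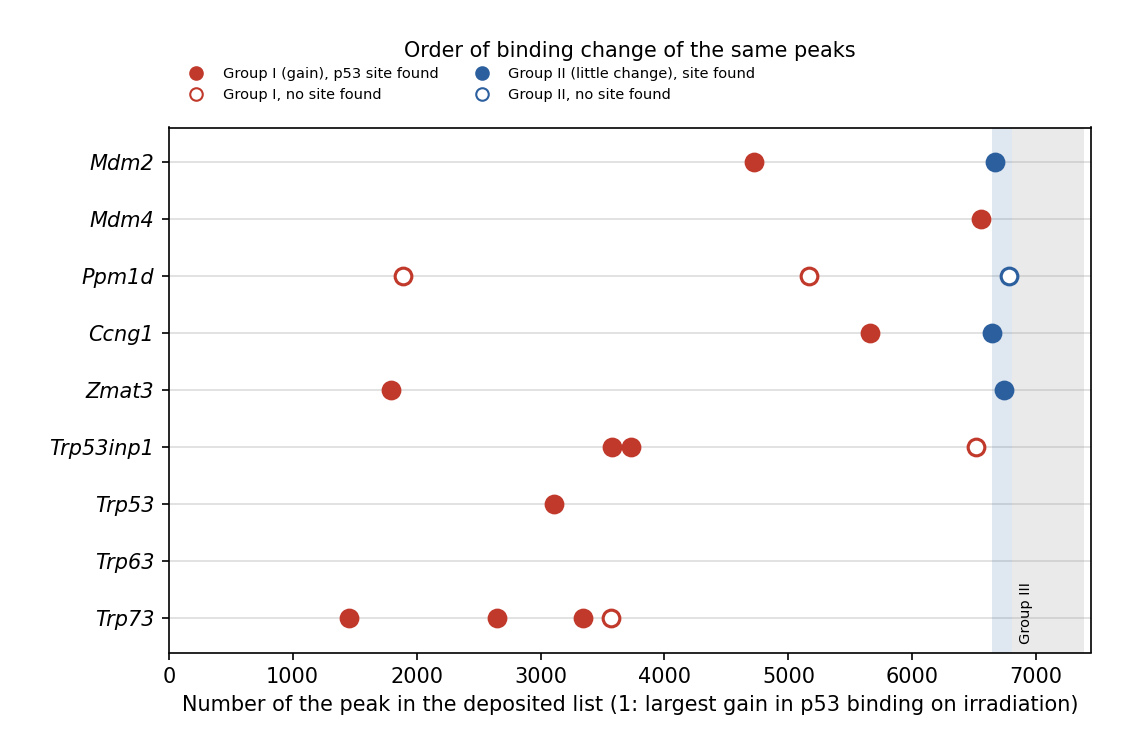
Number of each of the 18 peaks in the order of binding change (horizontal axis, 1 for the largest gain upon IR), with 1 row per gene. The blue band is the range of Group II and the grey band that of Group III, and point colours and fills are those of the plot of distances. Group II peaks of *Mdm2*, *Ppm1d*, *Ccng1* and *Zmat3* fall in the narrow blue band, and none of the 18 falls in the grey band.

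Of the 18 peaks, 13 held a p53 site, against 54.4% of all peaks. The best site had 0 mismatches in 1 peak, 1 mismatch in 5, 2 in 4 and 3 in 3. At most 1 mismatch was thus seen in 6 peaks, against 24% of the list, and a site without mismatch in 1, against 6.15%. With spacers of up to 13 bases allowed, 16 of the 18 peaks had a match, against 72.7%. The 3 half-sites in a row were found in 4 peaks, those of *Mdm2* (6667), *Mdm4* and *Trp53inp1* (3732 and 3579), against 10.2% of all peaks. The near-identical *Trp53inp1* peaks entered this and the other site counts separately, though they are not independent. Of the 4 Group II peaks, 3 had a site, and nothing is read from this count, since the share over all Group II peaks is not given here.

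The median distance from the centre of the site to the centre of the peak was 9 bp, the same as for all peaks with a site. The 5 peaks without a site were the 3 of *Ppm1d*, the promoter peak of *Trp53inp1* and the outermost upstream peak of *Trp73*. The GC content of the 18 windows ranged from 41.5% to 74%, with a median of 54.5%, against 49% for all peaks. A match is a description of the sequence, and its absence says only that these letters were not in the window.

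**Figure D4:**
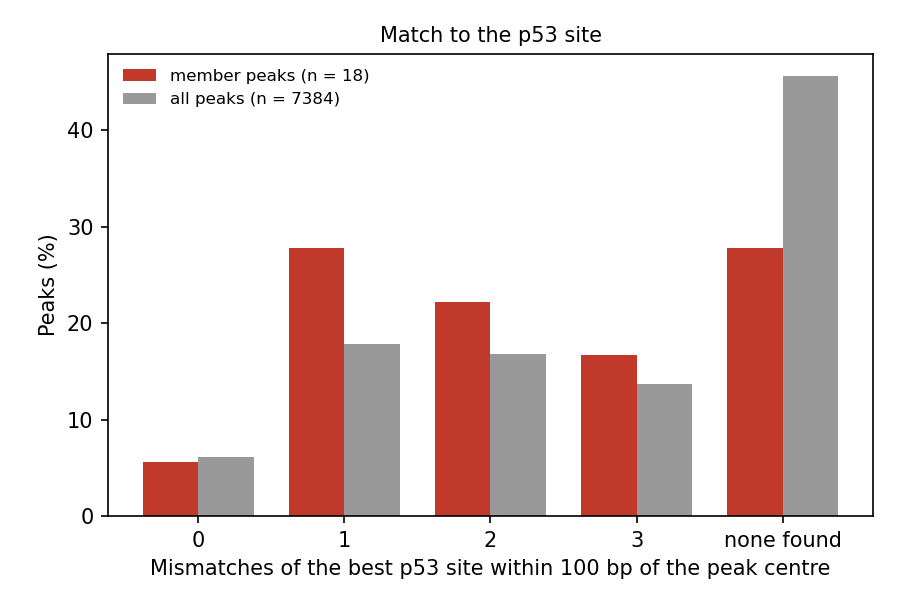
Share of peaks (vertical axis, %) by the number of mismatches of the best p53 site within 100 bp of the centre (horizontal axis), for the 18 peaks near the 9 genes in red and for all 7384 peaks in grey. No site was found in 27.8% of the 18 and 45.6% of all peaks, and 27.8% and 17.8% had a site with 1 mismatch.

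The 4 bases in the middle of the half-sites, the core, are given as a description, with no test of a difference from the list. Of the 26 half-sites in the 13 best sites, 7 had the core CATG, or 26.9%, against 51.2% of the 8040 half-sites of all peaks with a site. The cores CAAG and CTTG, which are the same sequence on opposite strands, made up 12 of the 26, or 46.2%, against 27.2%. At least 1 CATG core was present in 5 of the 13 sites, against 77.7% in the list. Both half-sites had CATG in *Mdm2* peak 6667 and *Trp73* peak 2648. The sites of *Mdm4*, *Trp53*, *Ccng1* (5657) and *Zmat3* (1792) had CAAG or CTTG in both half-sites. The near-identical *Trp53inp1* peaks entered these counts as separate sites, and the comparison of cores was added after the sequences were seen.

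The farthest peak inside the limit of 50 kb was that of *Ppm1d* at 40400 bp. The nearest outside were peak 5951 at 51883 bp from *Mdm2*, with a site of 0 mismatches and *Slc35e3* nearer at 16283 bp, and peak 4351 at 58403 bp from *Trp53*, nearer to *Dnahc2*.

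Other parts of the pathway were examined with a list of 35 further p53 regulators and paralogs of the 9 genes. A peak lay within 50 kb of 20 of these, against 40.5% of all protein-coding genes, within 10 kb of 10, against 15.6%, and within 1 kb of 6, against 6.15%, and 13 had at least 2 peaks, against 14.4%. By role, a peak was found near 4 of 6 ubiquitin ligases for p53, 3 of 3 deubiquitinases and 3 of 6 kinases of the DNA damage signal. A peak was also found near 8 of 11 genes of a mixed class and 2 of 9 paralogs of the 9 genes. The mixed class includes inhibitors of Mdm2 and both cofactors and an inhibitor of p53. These counts rest on few genes each, beside the 40.5% of all genes, and nothing is read from them. The 37 peaks comprised 33 of Group I, 1 of Group II and 3 of Group III, and 18 of the 37 had a p53 site, all close to the shares of the whole list given above (89.9%, 2.17%, 7.9% and 54.4%).

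The 6 genes of this list with a peak within 1 kb were *Rchy1*, *Usp7*, *Chek2*, *Trp53bp1*, *Trp53bp2* and *Ppp1r13l*. *Usp7*, the deubiquitinase of Mdm2 and p53, had peak 7384, the last of the order and of Group III, 600 bp upstream of a TSS, and peak 2164 of Group I 983 bp downstream of another TSS. *Trp53bp2*, which encodes a cofactor that binds p53, had peak 7020 of Group III 131 bp upstream of a TSS, with *Gm10517* nearer at 21 bp. Neither Group III peak held a p53 site, and their GC contents were 79.5% and 74%. At the other 4 genes the peaks were of Group I, 347 bp from *Rchy1*, a ligase gene, 272 bp from *Chek2*, a damage kinase gene, 351 bp from *Trp53bp1*, which encodes a damage response protein, and 647 bp from *Ppp1r13l*, which encodes an inhibitor of p53, all without a site. The single Group II peak, 6655, lay 29727 bp from *Chek2* and 193 bp from *Ulk1*, a gene named here after its values were seen.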

How the data were processed

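p53 was immunoprecipitated from crosslinked chromatin of Ba/F3 and HPC7 cells, with input DNA as the control. The authors mapped reads to mm9 with Bowtie 1.0.0 and called peaks with MACS 1.4.1 (versions from the submitters' processing notes), and deposited 1 list of 7384 peaks for the 3 p53 libraries. How the libraries were merged is not given in the sources used here. The deposited values are positions and a peak number, with no count, signal, fold or p-value, so the depth of the libraries and the counting error are unknown. The study also published normalized read intensities around each peak, which were not used here. The H3K27ac library was not analysed here.

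Distances were taken from the peak centre to the TSSs of GENCODE M1 transcripts on mm9 (NCBIM37). p53 sites were searched in 200 bp windows. The consensus reads the same on both strands, so that 1 strand covers both. The search was tested on simulated data with planted sites. Similar windows came from a BLAST+ 2.17.0 search with an e-value limit of 1e-10 and words of 11 bases, and pairs with at least 80% identity over 100 bp or more were kept. The scripts ran on Python 3.11.15 with matplotlib 3.10.9, NumPy 2.4.6 and pysam 0.24.0, and samtools 1.23.1 indexed the genome.

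The 9 genes, the list of 35 further genes and the settings were chosen with earlier results of these data known. Genes named are the 9, those with a TSS nearer to one of their peaks, and those of the 35 with a peak within 1 kb. Others named are the genes nearest to the peaks just outside the 50 kb limit, *Gm10517* and *Ulk1*, chosen after their values were seen. Shares of all protein-coding genes or all peaks are given as the background, and no test was run. The alternatives were other distance limits, protein-coding TSSs alone, merged peaks, the nearest gene alone, and other mismatch, spacer, window and core settings for the site.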

Additional observations from a re-analysis of the deposited data

How the results depend on the processing

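Counting a peak only where 1 of the 9 genes had the nearest protein-coding TSS left 11 of the 18 peaks. The other 7, with the only *Trp53* peak among them, had another gene nearer. The count was 13 at 10 kb, 22 at 100 kb, 18 with protein-coding TSSs and 17 with peaks within 1 kb merged, and 8 genes had a peak at 10 kb, at 100 kb and with protein-coding TSSs. Peaks with a p53 site numbered 10 with at most 2 mismatches (40.8% of all peaks), 14 with at most 4 (61.5%), 16 with spacers (72.7%), 13 with windows of 50 bp either side (51.4%), and 13 with the core bases as ordinary positions (65.4%), the last added after the data were seen. Of the 13 peaks within 10 kb, 10 had a site, against 40% of all peaks within 10 kb of a protein-coding TSS. Group II peaks numbered 4 at 10 kb and at 100 kb, and 3 when the *Ppm1d* promoter peaks were merged under their lower number. No paired analysis was possible because there was 1 library per condition and the result comes from no test.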
